A study of Rattus norvegicus with 84 samples.

Results

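The genes described here are 32 genes of cholesterol supply and removal, taken by symbol from the expression tables of a rat hippocampus study. They comprise 7 enzymes of the mevalonate arm, 11 enzymes of squalene and sterol synthesis, 5 regulators that sense sterols, and 9 genes of sterol transport, storage, efflux and receptors. The rule that picks them uses gene symbols and no measured value, and all 32 were present in each of the 3 tables, among 15999 genes in any of them. The study sequenced polyA RNA of the CA1, CA3 and dentate gyrus (DG) subregions from 16 middle-aged (12 months) and 12 young (5 months) male F344 rats, an inbred strain for which the labels name no treatment or transgene, which gave 84 libraries. Each rat gave 1 library per subregion from a single hemisphere, so the rats are separate animals and the libraries of a rat are not.

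The brain makes nearly all of its own cholesterol, because plasma lipoproteins hardly cross the blood-brain barrier. Acetyl-CoA units pass through mevalonate to squalene, which is closed to lanosterol and trimmed to cholesterol; in the adult brain, astrocytes pass cholesterol to neurons on Apoe particles loaded by the transporters Abca1 and Abcg1. When sterols fall, Scap escorts the transcription factors Srebf2 and Srebf1 out of the endoplasmic reticulum to be cleaved, Insig proteins hold them back, and liver X receptors (Nr1h2, Nr1h3) turn on efflux genes when oxysterols rise. Neurons dispose of cholesterol mainly through Cyp46a1, a hydroxylase whose oxysterol product leaves the brain.

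The libraries held between 14.4 and 23.4 M recovered reads in CA1 (median 17.6), between 15.7 and 21.8 M in CA3 (median 18.5) and between 14.9 and 21.8 M in the DG (median 17.8). Markers of the dissected subregions were highest in their own subregion for 5 of 5 CA1 genes, 4 of 4 CA3 genes and 4 of 4 DG genes. Between the ages, 12.8% of all genes tested fell in CA1, and in the DG 18.5% rose and 18.5% fell. With age, 2 of the 5 CA1 markers fell in CA1, where all 5 had a negative change (median log2 change -0.25). In the DG, 2 of the 4 DG markers rose and 1 fell, 1 of the 4 CA3 markers rose and 2 fell, and 1 of the 5 CA1 markers fell. The part of these changes in the results was not tested. Summed microglial markers (11 genes) reached 43999 normalized reads in the highest middle-aged CA1 library, against 9462 in the highest young one. Animal numbers in the titles form 2 runs, a first of 10 middle-aged and 6 young rats and a second of 6 middle-aged and 6 young rats. Middle-aged and young numbers do not interleave within either run. No label calls the runs or their blocks batches, and age and block of numbers cannot be told apart inside a run.

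Of the 32 members, the regulators Srebf2 and Scap and the neuronal hydroxylase Cyp46a1 were lower in middle-aged rats in CA1, CA3 and the DG. Averaged over a rat's 3 subregions, Srebf2 fell by 13.7%, Scap by 15.9% and Cyp46a1 by 20.7%. Among the enzymes, Fdps and Dhcr7 fell in 2 subregions each and Idi1, the isoprenoid isomerase, rose in 2, while Apoe did not pass the test in any. A gene is said to have risen or fallen where limma on log2 of the normalized count plus 1 gave an adjusted p under 0.05 over all genes tested. In such bulk tissue, fewer cells of a type and less RNA per cell cannot be told apart.

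In CA1, 0 members rose and 5 fell, which is 15.6% of the 32, where 12.4% of the 14685 tested genes rose and 12.8% fell. In CA3, 1 rose and 5 fell, where 10.9% of 14893 genes rose and 10.8% fell. In the DG, 5 rose (15.6%) and 9 fell (28.1%), where 18.5% of 14526 genes rose and 18.5% fell. The falling share in CA1 is close to that of all genes. In all 3 subregions together, 3 members (9.38%) fell in each, where 4.45% of 14291 genes did, and 0 members rose in each, where 4.24% of genes did. At least 2 subregions showed a fall for 5 members, against a background of 12.3% of genes, and a rise for 1 member, against 11.1%. The median log2 change of the 32 members was -0.013 in CA1, -0.028 in CA3 and -0.033 in DG libraries, beside 0.0038, 0.0022 and 0.010 over all genes tested. The members moved in both directions, and in 96 of 96 pairs of a member and a subregion the ranges of the age groups overlapped. The share of all genes with overlapping ranges was not computed, so this overlap is not shown to be particular to the members.

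**Figure D1:**
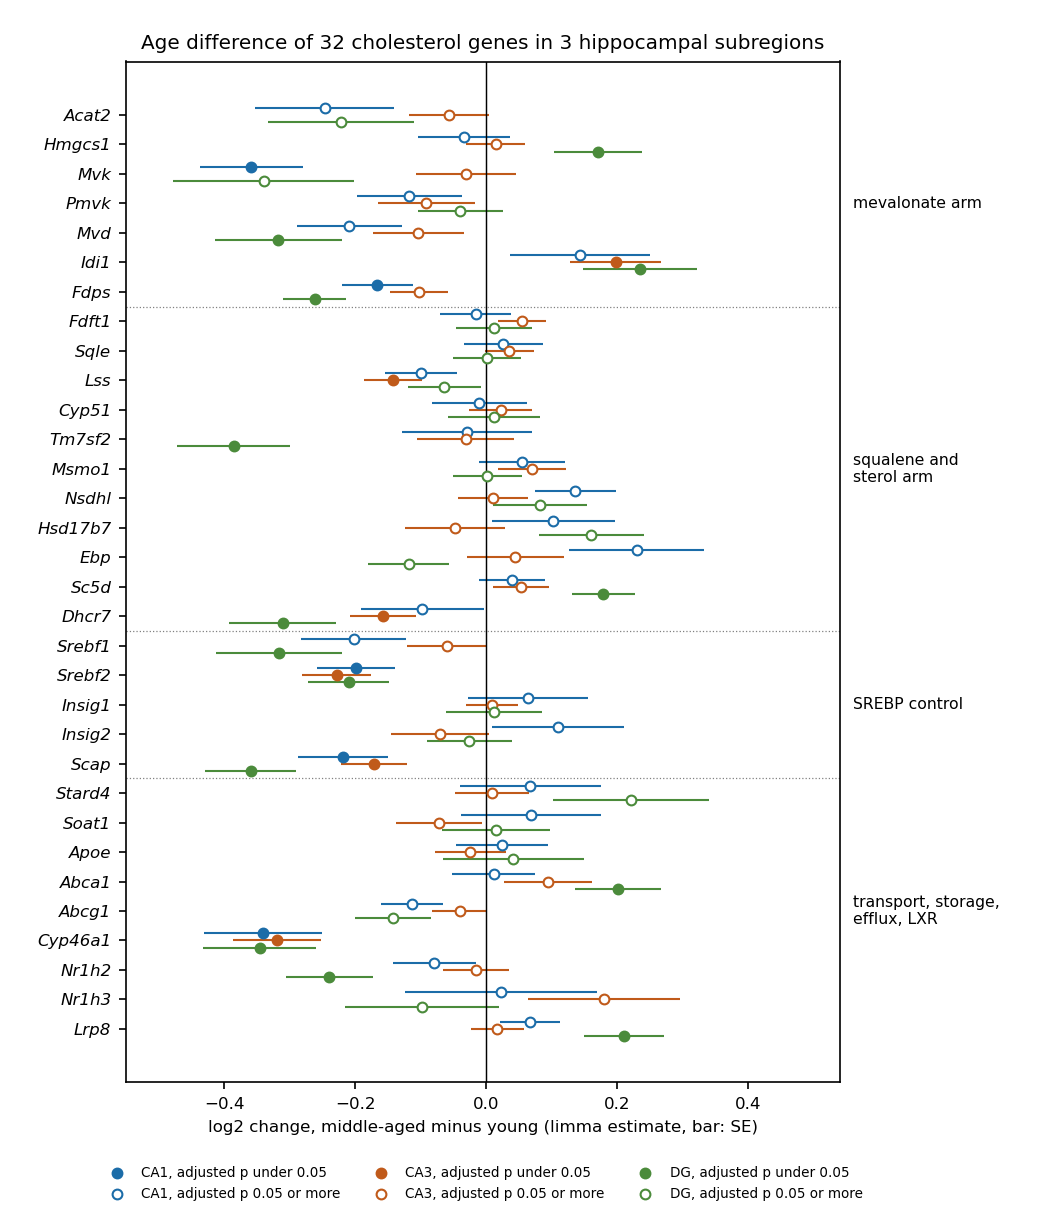
Log2 change (middle-aged minus young, limma estimate, bars SE) of the 32 members in CA1, CA3 and the DG, grouped by role; filled circles passed an adjusted p of 0.05. Srebf2, Scap and Cyp46a1 lie left of 0 with filled circles in all 3 subregions, and Idi1 lies right of 0 with filled circles in CA3 and the DG.

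The promoters of the 3 genes that fell in every subregion are shown because the results turn on them, together with that of Fdps, the enzyme that fell with the smallest p. Each window runs from 250 bases before to 50 bases after the start in the RefSeq annotation of the GRCr8 build, as chr7:115543057-115543356 on the plus strand for Srebf2, chr8:119184188-119184487 on the plus strand for Scap, chr6:133011740-133012039 on the plus strand for Cyp46a1 and chr2:176804767-176805066 on the minus strand for Fdps. Capitals mark CCAAT, the box bound by NF-Y, and GGGCGG, the box bound by Sp1, in either orientation.
Srebf2: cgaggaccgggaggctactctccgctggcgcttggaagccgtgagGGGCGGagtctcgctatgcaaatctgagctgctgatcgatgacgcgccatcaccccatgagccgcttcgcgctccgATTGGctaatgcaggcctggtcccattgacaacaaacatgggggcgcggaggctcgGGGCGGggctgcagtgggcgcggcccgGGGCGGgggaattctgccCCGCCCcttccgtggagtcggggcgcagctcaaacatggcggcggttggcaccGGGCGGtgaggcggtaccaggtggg
Scap: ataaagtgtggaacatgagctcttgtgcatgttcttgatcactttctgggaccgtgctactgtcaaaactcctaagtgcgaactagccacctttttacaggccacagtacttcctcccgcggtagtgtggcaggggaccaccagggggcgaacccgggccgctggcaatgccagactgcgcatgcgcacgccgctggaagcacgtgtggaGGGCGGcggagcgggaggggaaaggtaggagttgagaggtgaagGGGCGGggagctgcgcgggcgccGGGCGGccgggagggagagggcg
Cyp46a1: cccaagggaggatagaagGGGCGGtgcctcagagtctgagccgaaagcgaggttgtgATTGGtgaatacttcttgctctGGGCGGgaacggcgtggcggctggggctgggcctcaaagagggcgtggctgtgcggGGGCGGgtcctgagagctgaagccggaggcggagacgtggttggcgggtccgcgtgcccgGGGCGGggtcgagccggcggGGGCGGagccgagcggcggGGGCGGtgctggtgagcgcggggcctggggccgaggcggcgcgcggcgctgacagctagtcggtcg
Fdps: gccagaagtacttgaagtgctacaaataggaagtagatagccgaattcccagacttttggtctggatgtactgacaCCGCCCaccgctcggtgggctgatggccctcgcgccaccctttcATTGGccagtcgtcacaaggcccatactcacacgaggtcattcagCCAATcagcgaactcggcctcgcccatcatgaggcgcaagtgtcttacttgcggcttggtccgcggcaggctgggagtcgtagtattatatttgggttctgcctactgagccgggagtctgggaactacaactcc
Srebf2 holds 1 CCAAT and 5 GGGCGG boxes in this window, Scap 0 and 3, Cyp46a1 1 and 6, and Fdps 2 and 1. RefSeq windows were found for 26 of the 32 members, 29 windows in all. CCAAT lay in 72.4% of these 29 windows, beside 37.5% of all 33469 windows of the table, and GGGCGG in 79.3%, beside 33.1%. The core of the sterol regulatory element was searched as TCACNCCAC on both strands and lay in 0 of the 29 windows, beside 1.12% of all windows. These are exact matches of letters only. A site that differs from TCACNCCAC by a letter was not counted, so the 0 does not show that the windows lack sterol regulatory elements.

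The mevalonate arm turns acetyl-CoA units into farnesyl diphosphate. Of its 7 enzymes, 0 rose and 2 fell in CA1, 1 rose and 0 fell in CA3, and 2 rose and 2 fell in the DG. In these subregions 12.4%, 10.9% and 18.5% of all genes rose and 12.8%, 10.8% and 18.5% fell. Mvk, mevalonate kinase, had 150.1, 191 and 256 normalized reads in the lowest, median and highest middle-aged CA1 libraries, against 212, 244 and 310.2 in young CA1. The age groups overlapped, and 15 of 16 middle-aged libraries lay below the young median. Its log2 change in CA1 was -0.36 ± 0.079 (SE; adjusted p = 0.0025), and -0.37 in the first run of animal numbers and -0.33 in the second. In CA3 its change was -0.031 ± 0.076 (adjusted p = 0.81) and in the DG -0.34 ± 0.14 (adjusted p = 0.052), so the DG estimate was of similar size to that of CA1 but had a wider error.

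Fdps makes farnesyl diphosphate, the branch point between sterols, ubiquinone and protein prenylation. In the DG it had 2092, 2467 and 2786 normalized reads in middle-aged rats, against 2489, 2936 and 3253 in young rats, again as lowest, median and highest library. All 16 middle-aged DG libraries lay below the young median, although the ranges overlapped. The change was -0.26 ± 0.048 in the DG (adjusted p = 0.00036), with -0.24 for the first run and -0.26 for the second. In CA1, Fdps had 1964, 2601 and 2988 normalized reads in middle-aged rats and 2579.6, 2853 and 3328 in young rats, a change of -0.17 ± 0.054 (adjusted p = 0.024). In CA3 it had 2439, 2831 and 3295 in middle-aged rats and 2586, 3096 and 3613 in young rats, which did not pass the test (change -0.10, adjusted p = 0.096). The RefSeq table lists 5 Fdps pseudogenes, and how reads shared with them were counted is not given in the sources used here, so its level is uncertain.

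Idi1 interconverts the isoprenoid building blocks and was the enzyme that rose in more than 1 subregion. In the DG it had 234, 342 and 456 normalized reads in middle-aged rats, against 242, 285 and 341 in young rats. In CA3 it had 304, 429.6 and 547 in middle-aged rats, against 289, 367 and 446 in young rats, and 15 of 16 middle-aged libraries lay above the young median. The change was 0.20 ± 0.069 in CA3 (adjusted p = 0.039) and 0.23 ± 0.087 in the DG (adjusted p = 0.035). Without the 3 libraries of CA3 farthest from their groups (middle-aged rats 10 and 14 and young rat 12), the CA3 change was 0.18 and missed the threshold (adjusted p = 0.080). In CA1 the libraries ran over 168, 232 and 309.5 in middle-aged rats and 143, 215 and 281 in young rats, with a change of 0.14 ± 0.11 (adjusted p = 0.33).

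Mvd, which decarboxylates mevalonate diphosphate, fell in the DG, with 364, 467 and 678 normalized reads in middle-aged rats and 447, 622 and 794 in young rats (change -0.32 ± 0.097, adjusted p = 0.012). Its change was -0.21 in CA1 (adjusted p = 0.054) and -0.10 in CA3 (adjusted p = 0.29). Hmgcs1, the synthase that commits acetyl units to this route, rose in the DG, with 2261, 2863 and 3415 normalized reads in middle-aged rats and 2111, 2547 and 2957 in young rats. The DG change of Hmgcs1 was 0.17 ± 0.067 (adjusted p = 0.045), and 0.15 (adjusted p = 0.076) without young rats 3 and 6 and middle-aged rat 6, the libraries farthest from their groups. Thus neighbouring steps of 1 route differed in sign, since Idi1 sits between Mvd and Fdps. Pmvk, phosphomevalonate kinase, and Acat2, the cytosolic thiolase that opens the route, did not pass the test in any subregion. Acat2 had changes of -0.25 in CA1 (adjusted p = 0.083), -0.057 in CA3 and -0.22 in the DG (adjusted p = 0.11). RefSeq lists 3 genes with names like Acat2, and shared reads make its level uncertain as well.

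Among the 11 enzymes of squalene and sterol synthesis there were 0 rises and 0 falls in CA1, 0 rises and 2 falls in CA3, and 1 rise and 2 falls in the DG. The shares of all genes were 12.4%, 10.9% and 18.5% for rises and 12.8%, 10.8% and 18.5% for falls. The median log2 change of the 11 enzymes was 0.026, 0.022 and 0.0018 in the 3 subregions. For the mevalonate arm it was -0.17, -0.057 and -0.22, and the difference between the arms was not tested. Tm7sf2, a sterol reductase of the endoplasmic reticulum, had 277, 374 and 462 normalized reads in middle-aged DG, against 317, 501 and 611 in young DG. Each of the 16 middle-aged DG libraries lay below the young median, with overlapping ranges, and the change was -0.39 ± 0.087 (adjusted p = 0.0014). The changes of Tm7sf2 were -0.030 in CA1 (adjusted p = 0.85) and -0.032 in CA3 (adjusted p = 0.80).

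Dhcr7 reduces the last double bond on one route to cholesterol. In the DG it had 441, 534 and 748 normalized reads in middle-aged rats, against 502, 696 and 849 in young rats. In CA3 it had 465, 529.6 and 602 in middle-aged rats, against 512, 589 and 676 in young rats. Middle-aged libraries lay below the young median in 15 of 16 cases in the DG and 14 of 16 in CA3, and both pairs of ranges overlapped. The change was -0.31 ± 0.081 in the DG (adjusted p = 0.0042) and -0.16 ± 0.051 in CA3 (adjusted p = 0.024), and in CA3 it was -0.15 (adjusted p = 0.063) without the 3 farthest libraries named above. In CA1, Dhcr7 had 335, 396 and 496 in middle-aged rats and 297, 459.9 and 600.1 in young rats, with opposite signs in the runs (0.19 in the first and -0.39 in the second) and an adjusted p of 0.46.

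Sc5d, a desaturase of the late sterols, rose in the DG. It had 1849.9, 2109 and 2406 normalized reads in middle-aged rats, against 1687, 1825 and 2145 in young rats, and all 16 middle-aged libraries lay above the young median within overlapping ranges. The change was 0.18 ± 0.048 (adjusted p = 0.0047). Lss, which folds squalene epoxide into lanosterol, fell in CA3, with 1072, 1357 and 1559 in middle-aged rats and 1326, 1522 and 1601 in young rats (change -0.14 ± 0.044, adjusted p = 0.020). In the same libraries the neighbouring enzymes Fdft1 (squalene synthase), Sqle (squalene epoxidase), Cyp51 (lanosterol demethylase) and Msmo1 (methylsterol oxidase) did not pass the test in any subregion. The age change of Sqle, the later rate-limiting step, had an interval of -0.10 to 0.15 in CA1, -0.040 to 0.11 in CA3 and -0.10 to 0.11 in the DG on the log2 scale. Fdft1 had 2010.3, 2132 and 2460.2 normalized reads in middle-aged CA3 and 1927, 2095 and 2287 in young CA3 (change 0.055, adjusted p = 0.29).

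Ebp, the sterol isomerase, had 101, 128 and 164 normalized reads in middle-aged CA1 and 63.1, 118 and 144 in young CA1. Nsdhl, a sterol dehydrogenase that removes a carbon, had 374, 453 and 562 in middle-aged CA1 and 359, 414 and 460.3 in young CA1. These had the smallest p among the positive changes of CA1, and neither passed after adjustment (Ebp 0.23, adjusted p = 0.097; Nsdhl 0.14, adjusted p = 0.10). In the DG, Ebp had a change of -0.12 (adjusted p = 0.12). Hsd17b7, the ketosterol reductase of the pathway, was among the enzymes that did not pass, with changes of 0.10 in CA1, -0.047 in CA3 and 0.16 in DG libraries.

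Of the 5 regulators, 2 fell in CA1, 2 in CA3 and 3 in DG libraries, and 0 rose, where 12.8%, 10.8% and 18.5% of all genes fell and 12.4%, 10.9% and 18.5% rose. Srebf2 is the transcription factor that drives the genes of cholesterol synthesis and uptake. In CA1 it had 4355, 5198 and 6352 normalized reads in middle-aged rats, against 4849, 5976 and 7263 in young rats. In CA3 the values were 5202, 6252 and 6865 in middle-aged rats, against 6034, 7218 and 8901 in young rats. In the DG they were 5329, 6364 and 7482 in middle-aged rats, against 6347, 7279 and 9134 in young rats. All age ranges overlapped, and middle-aged libraries lay below the young median in 15, 16 and 13 of 16 cases in CA1, CA3 and the DG. The log2 change was -0.20 ± 0.060 in CA1 (adjusted p = 0.016), -0.23 ± 0.053 in CA3 (adjusted p = 0.0034) and -0.21 ± 0.062 in the DG (adjusted p = 0.0093). Both runs gave a negative change in each subregion, with -0.14, -0.13 and -0.10 in the first run and -0.27, -0.33 and -0.33 in the second.

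Scap, the sterol-sensing escort of the Srebf proteins, had 2331, 2952 and 3455 normalized reads in middle-aged CA1, against 2674, 3421 and 4141 in young CA1. In CA3 it had 2648, 3157 and 3523 in middle-aged rats, against 2979.6, 3422 and 4117 in young rats. The DG values were 2548, 3158 and 4244 in middle-aged rats, against 3363, 3933 and 4885 in young rats. Middle-aged medians were lower in each subregion with overlapping ranges, and in the DG 15 of 16 middle-aged libraries lay below the young median. The change was -0.22 ± 0.068 in CA1 (adjusted p = 0.020), -0.17 ± 0.051 in CA3 (adjusted p = 0.016) and -0.36 ± 0.070 in the DG (adjusted p = 0.00050). In CA1 the first run gave -0.041 and the second -0.46, a far smaller change in the first.

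Srebf1, the relative of Srebf2 that leans to fatty acid genes, fell in the DG, with 1079.6, 1535 and 1950.5 normalized reads in middle-aged rats and 1294, 1969 and 2504 in young rats. All 16 middle-aged DG libraries lay below the young median, within overlapping ranges. The change was -0.32 ± 0.096 (adjusted p = 0.011), but -0.023 in the first run (adjusted p = 0.93) and -0.63 in the second (adjusted p = 7.4e-06). It did not pass in CA1 (-0.20, adjusted p = 0.060) or CA3 (-0.060, adjusted p = 0.52). Insig1 and Insig2, which hold Scap in the endoplasmic reticulum, did not pass in any subregion. The interval of Insig1, itself a target of Srebf2, was -0.12 to 0.25 in CA1, -0.071 to 0.088 in CA3 and -0.14 to 0.16 in the DG.

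**Figure D2:**
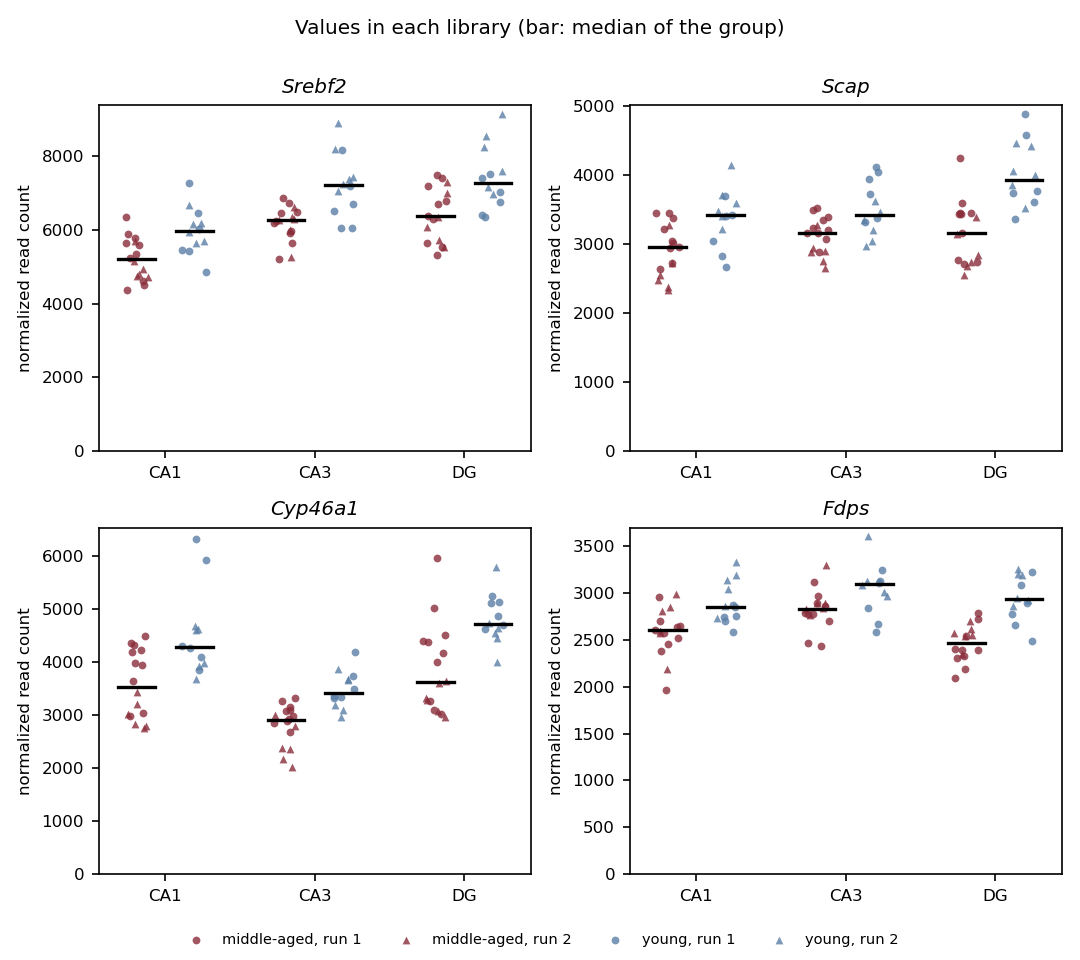
Normalized read counts of Srebf2, Scap, Cyp46a1 and Fdps in each library by subregion, middle-aged left of young, with the group median as a bar and the run of animal numbers as the symbol. Middle-aged medians are lower in all 3 subregions for the 4 genes (Fdps in CA3 did not pass the test), and the ranges overlap.

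Cyp46a1, the neuronal cholesterol hydroxylase, had the largest average fall of the 32 members. In CA1 it had 2746, 3529.8 and 4489 normalized reads in middle-aged rats, against 3666, 4283 and 6306 in young rats. In CA3 it had 2024, 2902 and 3309 in middle-aged rats, against 2963, 3411 and 4179 in young rats. In the DG it had 2957, 3617 and 5959 in middle-aged rats, against 3986, 4717 and 5791 in young rats. The middle-aged libraries lay below the young median in 13, 16 and 14 of 16 cases in CA1, CA3 and the DG, and the highest middle-aged DG library exceeded the highest young one. The change was of similar size in each subregion, -0.34 ± 0.090 in CA1 (adjusted p = 0.0082), -0.32 ± 0.067 in CA3 (adjusted p = 0.0016) and -0.35 ± 0.087 in the DG (adjusted p = 0.0031). In the first run it was -0.28, -0.24 and -0.27, and in the second -0.50, -0.48 and -0.50. Among all genes tested, 12.4%, 10.9% and 18.5% rose and 12.8%, 10.8% and 18.5% fell in CA1, CA3 and the DG. Of 10 neuronal markers measured in the same libraries, 1 rose and 2 fell in CA1, 1 rose and 2 fell in CA3, and 4 rose and 3 fell in the DG. Their summed level was 121054, 131801 and 153096 in middle-aged CA1 and 118690.0, 128553 and 155172 in young CA1 (lowest, median and highest), and their part in the fall of Cyp46a1 was not tested.

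Among the efflux genes, Abca1, which loads cholesterol onto Apoe, rose in the DG, with 558, 698 and 895 normalized reads in middle-aged rats and 457, 616 and 693 in young rats. Its change was 0.20 ± 0.066 in the DG (adjusted p = 0.018), 0.011 in CA1 (adjusted p = 0.92) and 0.094 in CA3 (adjusted p = 0.33). In the DG, 14 of 16 middle-aged libraries lay above the young median. Abcg1, its partner transporter, had negative changes of -0.11, -0.041 and -0.14 in CA1, CA3 and the DG, with adjusted p of 0.078, 0.52 and 0.052. Both are liver X receptor targets, and their changes had opposite signs. Abcg1 did not pass in any single subregion, and the difference between the genes was not tested.

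Nr1h2, the broadly expressed liver X receptor, fell in the DG, with 729, 878 and 1101 normalized reads in middle-aged rats and 759.5, 1042 and 1240.1 in young rats (change -0.24 ± 0.067, adjusted p = 0.0065). Nr1h3, the other receptor, had low counts, with 28.3, 45.8 and 58.7 normalized reads in middle-aged CA3 and 28.0, 38.8 and 47.3 in young CA3. It did not pass the test (change 0.18 ± 0.12, adjusted p = 0.28), and its interval was -0.056 to 0.42. Lrp8, a receptor for Apoe and reelin on neurons, rose in the DG, with 1979.6, 2325 and 2639 in middle-aged rats and 1478, 2053 and 2379 in young rats. Of the 16 middle-aged DG libraries, 15 lay above the young median of Lrp8, and the change was 0.21 ± 0.061 (adjusted p = 0.0084). The DG medians of Lrp8 in the first run were 2291 in middle-aged and 2288 in young rats, against 2390 and 1982 in the second. In CA1, Lrp8 had 1685, 1879 and 2295 in middle-aged rats and 1623, 1777 and 2083 in young rats (change 0.067, adjusted p = 0.28).

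Apoe is the main protein of brain lipid particles and the carrier that links efflux to uptake. In CA1 it had 37109, 44133 and 63851 normalized reads in middle-aged rats, against 36401, 44427 and 55341 in young rats. The log2 change of Apoe had an interval of -0.12 to 0.17 in CA1, -0.14 to 0.087 in CA3 and -0.18 to 0.26 in the DG. Astrocyte markers, from the cells that make most Apoe, rose for 0 and fell for 3 of 10 genes in CA1, and rose for 1 and fell for 1 in CA3 and likewise in the DG. Beside these counts, 12.4%, 10.9% and 18.5% of all genes rose and 12.8%, 10.8% and 18.5% fell in CA1, CA3 and the DG. Stard4, a cytosolic sterol carrier, and Soat1, which esterifies cholesterol for storage, did not pass in any subregion either. Their DG changes were 0.22 ± 0.12 (adjusted p = 0.14) for Stard4 and 0.015 ± 0.082 (adjusted p = 0.90) for Soat1.

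By the average of a rat's 3 log2 values, 4 members rose and 13 fell, 12.5% and 40.6% of the members, where 25.4% of 14291 genes rose and 24.6% fell. The falling genes were Mvk, Mvd, Fdps, Lss, Tm7sf2, Dhcr7, Srebf1, Srebf2, Scap, Acat2, Abcg1, Cyp46a1 and Nr1h2, and the rising ones Idi1, Sc5d, Abca1 and Lrp8. The mevalonate arm gave 1 rise and 4 falls of 7, the later enzymes 1 and 3 of 11, the regulators 0 and 3 of 5, and the transport group 2 and 3 of 9. Acat2 (-0.18 ± 0.064, adjusted p = 0.022) and Abcg1 (-0.10 ± 0.035, adjusted p = 0.020) passed here without passing in any single subregion. Abca1 passed narrowly (0.10 ± 0.043, adjusted p = 0.0495). Without the 3 farthest libraries per subregion, Abca1 had 0.070 (adjusted p = 0.17) and Tm7sf2 -0.11 (adjusted p = 0.15), and neither passed.

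No member passed the test of a difference in age effect between subregions. Limma on the differences within rats called 0 members for CA3 minus CA1, DG minus CA1 and DG minus CA3, where it called 0%, 0.607% and 2.73% of all genes, and at an unadjusted p under 0.05 there were 1, 5 and 6 members, where 9.95%, 16.2% and 20.5% of all genes were under it. Tm7sf2 came nearest for DG minus CA3, with a difference of -0.35 ± 0.11 and an interval of -0.58 to -0.13 (adjusted p = 0.074). Ebp came nearest for DG minus CA1, with -0.35 ± 0.10 and an interval of -0.55 to -0.14 (adjusted p = 0.077). Mvk came nearest for CA3 minus CA1, with 0.33 ± 0.11 and an interval of 0.10 to 0.56 (adjusted p = 0.31). For Cyp46a1 the interval of the difference was -0.16 to 0.21 for CA3 minus CA1 and -0.24 to 0.23 for DG minus CA1. Differences between subregions within those limits remain compatible with the data.

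Within the runs of animal numbers, the called members had 1 direction in both runs in 5 of 5 cases in CA1, 6 of 6 in CA3, 14 of 14 in the DG and 17 of 17 for the average. The calls came from the same rats pooled over both runs, so a shared direction is partly built in and is not a replication. First-run changes near 0 also count as shared, such as -0.0061 for Srebf1 in the average (limma, adjusted p = 0.95). The same share over all called genes was not computed. The change was larger in the second run for 4 of 5 in CA1 (all but Mvk), 5 of 6 in CA3 (all but Scap), 12 of 14 in the DG (all but Abca1 and Sc5d) and 16 of 17 for the average (all but Abca1). The first run alone called 0 members in CA1, 2 in CA3 (Scap and Cyp46a1), 0 in the DG and 5 for the average (Pmvk, Fdps, Scap, Stard4 and Cyp46a1), where it called 3.19%, 4.83%, 0.172% and 18.4% of all genes. The second run alone called 9, 4, 15 and 18 members, where it called 33.8%, 16.5%, 46.9% and 58.1% of all genes. The second run also called Lrp8 for DG minus CA3, with a difference of 0.29, where it called 5.26% of all genes. Whether the runs differ for a reason other than age was not tested.

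**Figure D3:**
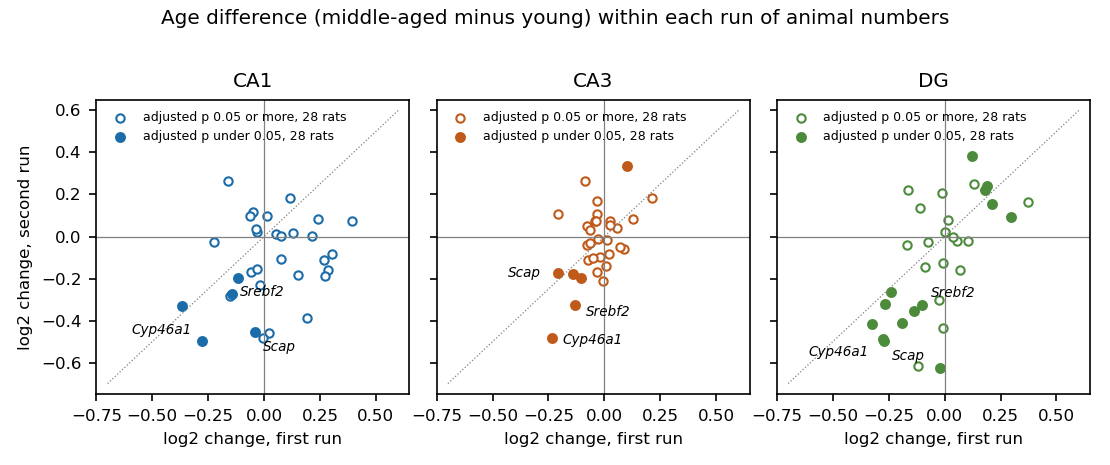
Log2 change (middle-aged minus young) of the 32 members in the first run of animal numbers on the x axis and in the second on the y axis, for CA1, CA3 and the DG; filled circles passed with all 28 rats and the dotted line marks equal change. The filled circles lie below 0 on both axes or above 0 on both axes in each panel, most of them farther from 0 on the y axis.

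Other genes of the pathway, from a list of 37 sterol handling genes, moved in both directions, with 6 rises and 5 falls in CA1, 8 rises and 8 falls in CA3, and 8 rises and 9 falls in the DG. Over all genes tested, 12.4%, 10.9% and 18.5% rose and 12.8%, 10.8% and 18.5% fell in these subregions. Lrp1, a large receptor that takes up Apoe particles, had 13407, 18448 and 21105 normalized reads in middle-aged CA1, against 19639, 22121 and 27483 in young CA1. All 16 middle-aged CA1 libraries lay below the young median. The change was -0.40 ± 0.076 in CA1 (adjusted p = 0.00094) and -0.25 ± 0.051 in CA3 (adjusted p = 0.0011). Partners of the liver X receptors fell too, Rxra with log2 changes of -0.41 in CA1 and -0.32 in CA3, and Rxrb with -0.27 in the DG (adjusted p = 0.00045). The lysosomal sterol carrier Stard3 fell in CA1 (-0.28), CA3 (-0.16) and the DG (-0.31). The lipid transporter Abca2 fell in CA1 (log2 change -0.22) and its relative Abca7 in the DG (-0.28). Scarb1, a lipoprotein receptor, fell in CA3 (log2 change -0.18) and the DG (-0.32).

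Genes of the same list that rose included Erlin1, a membrane protein that restrains Srebf activation, with log2 changes of 0.30 in CA1, 0.21 in CA3 and 0.25 in DG libraries. Cyp7b1, an oxysterol hydroxylase, rose in CA1, with 334, 479 and 772 normalized reads in middle-aged rats and 269, 355 and 495 in young rats (change 0.43 ± 0.12, adjusted p = 0.0085), and in CA3 (change 0.30). Vldlr, a second receptor for reelin and Apoe beside Lrp8, rose in the DG, with 649.5, 799 and 987 in middle-aged rats and 517, 654 and 734 in young rats (change 0.31 ± 0.062, adjusted p = 0.00057). Acat1, the mitochondrial thiolase, rose in CA1 (log2 change 0.26) and the DG (0.24). Gramd1c, a sterol transfer protein, rose in CA1 (log2 change 0.35). Osbp, an oxysterol-binding protein, and Npc2, a lysosomal sterol carrier, rose in CA3 (0.11 for Osbp and 0.38 for Npc2). Npc2 had 1706, 1993 and 5131 normalized reads in middle-aged CA3 and 1524, 1676 and 1849 in young CA3. The highest middle-aged library thus lay far above the median of its group. Mbtps2, a protease that cleaves Srebf proteins, rose in the DG (0.26).

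Srebf targets of fatty acid synthesis, 15 genes, gave 1 rise and 4 falls in CA1, 1 rise and 2 falls in CA3, and 2 rises and 2 falls in the DG. Beside them, 12.4%, 10.9% and 18.5% of all genes rose and 12.8%, 10.8% and 18.5% fell in these subregions. Fasn, fatty acid synthase, had 6649.8, 8324 and 10051 normalized reads in middle-aged CA1, against 8149.7, 10554 and 12005 in young CA1, a change of -0.32 ± 0.062 (adjusted p = 0.0010). Fasn also fell in CA3 (log2 change -0.17) and the DG (-0.29). Fads2, a fatty acid desaturase, fell in all 3 subregions (-0.17 in CA1, -0.25 in CA3 and -0.35 in DG libraries). Acly, the enzyme that supplies cytosolic acetyl-CoA to both lipid routes, fell in CA1 (-0.13), as did Gpam, an acyltransferase (-0.18). Me1, malic enzyme, rose in CA1 (0.20) and CA3 (0.18). In the DG, Acsl3, an acyl-CoA synthetase, rose (0.35), and so did Acaca, acetyl-CoA carboxylase (0.16).

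Cells of the oligodendrocyte line are heavy users of sterols, and their markers were read beside the members. Of 12 markers of mature oligodendrocytes, 1 rose and 2 fell in CA1, 2 rose and 1 fell in CA3, and 4 rose and 0 fell in the DG. Their summed level was 117100.0, 176367 and 269172 normalized reads in middle-aged CA1, against 162702, 208999 and 295459 in young CA1 (lowest, median and highest). In the DG it was 61294, 74522 and 98498 in middle-aged rats, against 60172, 80347 and 96717 in young rats. Of 9 markers of precursors and newly formed oligodendrocytes, 0 rose, and 4 fell in CA1, 2 in CA3 and 5 in DG libraries. Their summed level was 6384, 7928 and 10425 in middle-aged CA1 and 7858, 9556 and 10948 in young CA1. Microglial markers rose for 4, 8 and 3 of 11 genes in CA1, CA3 and the DG, and 0 fell. Endothelial and mural markers rose for 0 and fell for 1, 1 and 5 of 11. Choroid plexus markers rose for 0 and fell for 0 in each subregion, but their sum ran from 149 to 20019 normalized reads in middle-aged CA3 libraries, against 176 to 6541 in young CA3. The tables hold 11 of the 12 listed endothelial and mural markers, 4 of 5 each of the CA3 and DG markers, and 5 (CA1 and DG) or 7 (CA3) of 7 choroid plexus markers. No marker present in a table was at 0 in every library, and the part of these cells in the changes of the members was not tested.

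Across subregions the enzymes ran highest in CA3. The 3 tables were normalized separately, so this order is described without a test, on the deposited scale and on CPM (reads scaled to the same sum over the 15109 genes common to the tables). The median over 28 libraries was highest in CA3 for 16 of the 18 synthesis enzymes on the deposited scale and for 14 on CPM, where 45.6% and 32.6% of 14291 genes were highest in CA3. Hmgcs1 had a median of 2680.5 normalized reads in CA1, 4210.2 in CA3 and 2712 in DG libraries. CA3 exceeded CA1 in 27 of 28 rats, at 1.57 times its level (1.5 times on CPM), and the DG exceeded CA1 in 17. Acat2 had the widest step, with 220.4 in CA1, 313 in the DG and 479.8 in CA3, and CA3 above CA1 in 28 of 28 rats. On the deposited scale CA3 was also above CA1 in all 28 rats for Idi1 (1.81 times), Sqle (1.78), Fdft1 (1.56), Nsdhl (1.51), Mvd (1.5) and Cyp51 (1.32). With Acat2 these were 7 of the 18 enzymes, and on CPM 5 were, since Idi1 and Nsdhl were above in 27 rats. The share of all genes with CA3 above CA1 in all 28 rats was not computed.

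Of the 5 regulators, 2 were highest in CA3 on the deposited scale and 2 on CPM, and of the 9 transport genes 4 and 3 were. Insig1 was highest in CA3, as most enzymes were, with medians of 1504 normalized reads in CA3, 1009 in CA1 and 994 in the DG and CA3 above CA1 in 28 of 28 rats. Stard4, Abca1, Abcg1 and Soat1 were also highest in CA3 on the deposited scale, Stard4 at 1.66 times its CA1 level and Abca1 at 1.01 times. Srebf2 had medians of 6884 normalized reads in the DG, 6465 in CA3 and 5624 in CA1, with the DG above CA1 in 25 of 28 rats. Srebf1 was lowest in the DG at 1586, against 2063 in CA1 and 2208 in CA3. Cyp46a1 was lowest in CA3 at 3086, beside 3974 in CA1 and 4418 in the DG, and CA3 exceeded the DG in 1 of 28 rats. CA3 thus had the highest median of most enzymes and the lowest of Cyp46a1. Nr1h2 was highest in CA1 at 1320.2 and lowest in the DG at 948, and Apoe was highest in CA1 at 44366. Mature oligodendrocyte markers were summed to a median of 294659 in middle-aged CA3, above the 176367 of middle-aged CA1 and the 74522 of middle-aged DG, and their part in the order of the enzymes was not tested.

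**Figure D4:**
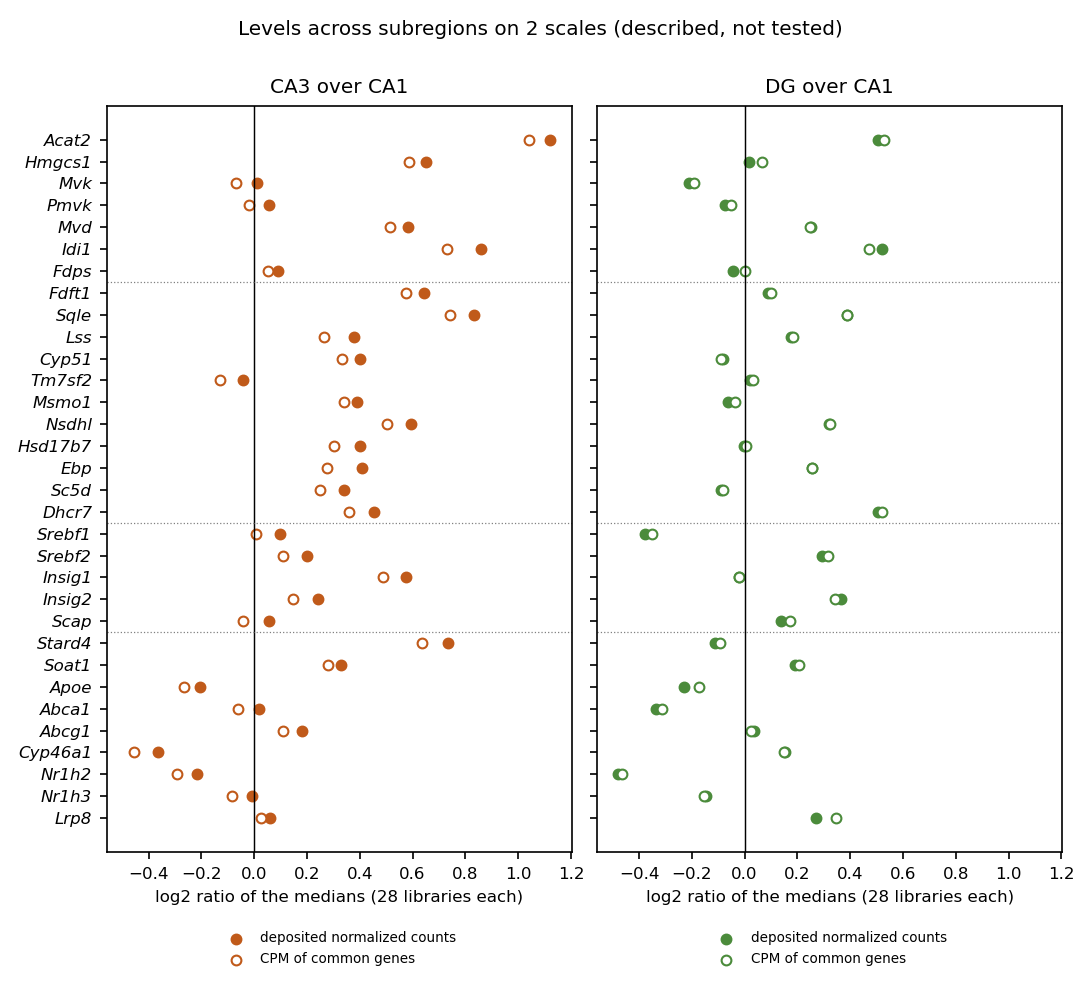
Log2 ratio of the median level of each member in CA3 over CA1 (left) and the DG over CA1 (right), over 28 libraries each, on the deposited scale (filled) and on CPM of common genes (open). Most enzymes lie right of 0 in CA3, Acat2 farthest, and Cyp46a1 lies left of 0 in CA3.

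Variation within the age and run groups was described by correlations between members. The median pairwise Pearson correlation of the 18 enzymes over 28 libraries, after removing the means of age and run, was 0.15 in CA1, 0.12 in CA3 and 0.21 in DG libraries, beside -0.0018 over all tested genes in CA1. For the 7 mevalonate enzymes it was 0.086, 0.12 and 0.11, and for the 11 later enzymes 0.27, 0.11 and 0.22. For the 5 regulators it was -0.019, 0.019 and 0.14. For the 9 transport genes it was -0.044, -0.021 and -0.085. The 12 mature oligodendrocyte markers gave 0.80, 0.89 and 0.44. The 10 astrocyte markers gave 0.18, 0.17 and 0.22, and the 10 neuronal markers 0.31, 0.12 and -0.022. The correlations of the 18 enzymes were thus weak beside the oligodendrocyte list, but not beside every marker list. These libraries share depth and tissue makeup, so the values are descriptions only.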

How the data were processed

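RNA was read in 84 libraries (28 rats, 3 subregions). The deposited values are a normalized signal: gene counts that the authors divided by 1 size factor per library, with a table per subregion. Per the submitters' processing notes, STAR 2.5.3a, Partek and DESeq2 3.5 were used with build rn6; the annotation, gene filter and strand were not given in the sources used here. Whole reads were recovered within 0.1 of a read for 100% of values up to 1000 reads. A gene entered the tests if at least 12 of the 28 libraries of a subregion had a value of 10 or more, which kept 32 of 32 members in every comparison. Log2 values (pseudocount 1) were compared, middle-aged minus young, by limma 3.58.1 under R 4.3.3 (empirical Bayes with a trend, 2-sided), with Benjamini-Hochberg adjustment over all genes tested and a threshold of 0.05. Intervals cover 95%. Fold changes on this scale understate changes of low genes. Averages and differences between subregions used 1 value per rat, paired by the animal number in the titles. Alternatives included fits of the recovered reads by edgeR 4.0.16 and by DESeq2 1.42.0. In the CA3 table a column is headed by the animal number alone and was read as that rat's CA3 library.

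All 32 members are named. Values by group are given for members called in at least 2 subregions or with the 3 smallest p per subregion and direction, and other members shown in full were picked after their values were seen. Of the sterol handling and fatty acid lists, up to 4 called genes per subregion and direction are named. The members and lists were chosen with earlier results of these data known, and genes of the lists that are not named remain in every test and count.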

Additional observations from a re-analysis of the deposited data

Results flagged for a closer look

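Acsl3, an acyl-CoA synthetase from the fatty acid list, is singled out because its age effect differed between subregions by a direct test, DG minus CA3. That test called 2.73% of all genes. In the DG it had 2246, 2573 and 3070.5 normalized reads in middle-aged rats, against 1622, 2059 and 2496 in young rats (lowest, median and highest library). In CA3 it had 2339.8, 2791 and 3296 in middle-aged rats, against 1792, 2637 and 3294 in young rats. In CA1 it had 2271.5, 2803 and 3014 in middle-aged rats, against 1785.5, 2579 and 3277 in young rats. The log2 change was 0.35 in the DG and 0.062 in CA3, and the difference within rats was 0.28 ± 0.070 (SE; limma, adjusted p = 0.032). It was 0.23 in the first run of animal numbers and 0.31 in the second, and neither run passed alone.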

How the results depend on the processing

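A pseudocount of 0.5 or of 5, testing without a filter, a stricter minimum of 50 (which left out Nr1h3), rescaling by TMM or by median of ratios, adding the run as a covariate, leaving out the 3 farthest libraries, and, within subregions, edgeR and DESeq2 on recovered reads gave between 5 and 7 called members in CA1, 4 and 6 in CA3, 14 and 17 in the DG, and 15 and 18 for the average, and no called member changed sign. The runs moved the counts most: the first run alone called 0 members in CA1, 2 in CA3, 0 in the DG and 5 for the average, and the second run alone called 9 in CA1 and 1 (Lrp8) for DG minus CA3, with fewer rats in each. Without the 3 farthest libraries, Idi1 and Dhcr7 in CA3, Hmgcs1 in the DG, and Tm7sf2 and Abca1 in the average were no longer called, and without a filter Abca1 in the average was not. The fit with no replicate block, which ignores the pairing by rat, called 0 members in each of the 3 differences, as did the paired fit. The calls of Srebf1 in the DG and Scap in CA1 were large in the second run and near 0 in the first, and for every call age and blocks of animal numbers cannot be told apart within a run. Lrp8 in the DG also had nearly equal medians in the first run (2291 middle-aged, 2288 young). How far depth limits members at low counts, such as Nr1h3, was not tested.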
